A study of Mus musculus with 12 samples.

Results

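The 46 genes described here were listed as factors that assemble the large (60S) ribosomal subunit, although the yeast counterpart of one of them, Ddx10, is better known for the small subunit. They were picked by symbol, each matched to a single Entrez gene row, out of 27179 genes counted by RNA-seq in mouse splenic B cells. The 12 libraries cover 6 stages with 2 biological replicates each, all from C57BL/6 mice without a genetic modification that the labels name. The paper states that the animals were males aged 6 to 12 weeks with a C57BL/6 Pep3b background. Naive B cells had received no treatment. Cells activated with lipopolysaccharide (LPS), a bacterial cell wall component that B cells sense, were taken after 3 h, 10 h and 33 h and sorted as undivided CD69+ cells. On day 4 of the same stimulus, long-term cultures were sorted into plasmablasts and expanded B cells. Plasmablasts carry CD138 and lack CD22, and expanded B cells carry CD22 and lack CD138. By the study's methods, the long-term cultures were set up at a lower cell density than the earlier ones. A division dye is described for the earlier ones alone. Density therefore changes together with time from 33 h to day 4. The stages are thus sorted fractions of cells stimulated outside the animal, and the naive cells were freshly sorted instead of cultured. The plasmablast gate selects on the products of Cd22 and Sdc1.

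Ribosome assembly starts in the nucleolus, where RNA polymerase I makes a long precursor that is folded, modified and cut into the ribosomal RNAs. Scaffold proteins, RNA helicases, methyltransferases and GTPases bind the pre-60S particle in sequence and leave it again as it moves through the nucleoplasm to the cytoplasm. Resting lymphocytes are small cells with little protein synthesis, and their growth before the first division is known to involve new ribosomes.

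Total counts ran from 23026619 to 60585587 per library, and the lowest count of a member in any library was 326. Levels are given as RPKM (reads per kilobase of exon and 1e6 counts, with library sizes scaled by TMM), so genes can be compared per length. The library size is the summed count of the tested genes (below) times a TMM factor of 0.84 to 1.12. Each level is relative to that size, and is neither a share of total mRNA nor an amount per cell. In bulk samples fewer cells of a type and less RNA per cell cannot be told apart. A gene was called differentially expressed (DE) if edgeR's glmTreat put its change past 1.5-fold at an adjusted p-value below 0.05, over 12767 tested genes. These p-values rest on the spread between 2 libraries a stage, pooled over genes and stages, as a permutation of 2 libraries against 2 gives no p below 0.333. The plasmablast markers were Sdc1, Prdm1, Xbp1, Irf4 and Jchain. They summed to 16400 to 16910 counts per 1e6 (CPM) in plasmablasts and to at most 2684 elsewhere, with Jchain at a mean of 12190 in plasmablasts. Sdc1, whose product the gate selects on, had a mean of 106 CPM in plasmablasts and at most 21.7 elsewhere. Irf4 went the other way, with a mean of 2270 CPM at 3 h and 902 CPM in plasmablasts. The naive libraries also held myeloid transcripts (121 to 275 CPM over 7 markers, at most 37.5 elsewhere) and erythroid transcripts (146 to 196 CPM over 5 markers, at most 2.12 elsewhere), and their part in the comparisons with naive cells was not tested.

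Together the 46 genes took 0.464% of all counts in naive cells. The share was 1.47% after 3 h of LPS, 1.43% by 10 h and 1.21% by 33 h, and on day 4 it was 0.859% in the expanded population and 0.369% in plasmablasts. Ncl, which encodes the abundant nucleolar protein nucleolin, supplied 21.5% to 35.5% of these counts. The mean level was highest at 3 h for 39 members, beside 23.9% of all tested genes. It was highest at 10 h for Ddx18, Rrp15 and Noc2l (beside 11.1%), at 33 h for Bop1, Npm1 and Lyar (9.6%), and in naive cells for Nsa2 (22.6%). For 32 of the 39, both 3 h libraries lay above all 10 other libraries, and the share of all tested genes with such a peak was not computed. Lyar at 33 h and Nsa2 in naive cells had such a peak too, but 0 members had one at 10 h. The mean of Bop1 was 120.6 RPKM at 33 h and 120.3 at 3 h, and that of Npm1 422.6 at 33 h and 419 at 10 h. No member had its highest mean in expanded B cells or plasmablasts, although 9.43% and 23.4% of all tested genes did. The lowest mean was in plasmablasts for 29 members, in naive cells for 16 and at 33 h for Ddx54. The shares of all tested genes by lowest stage were not computed. For 32 members the mean became lower at each successive stage after 3 h, a course shared by 8.8% of tested genes.

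**Figure D1:**
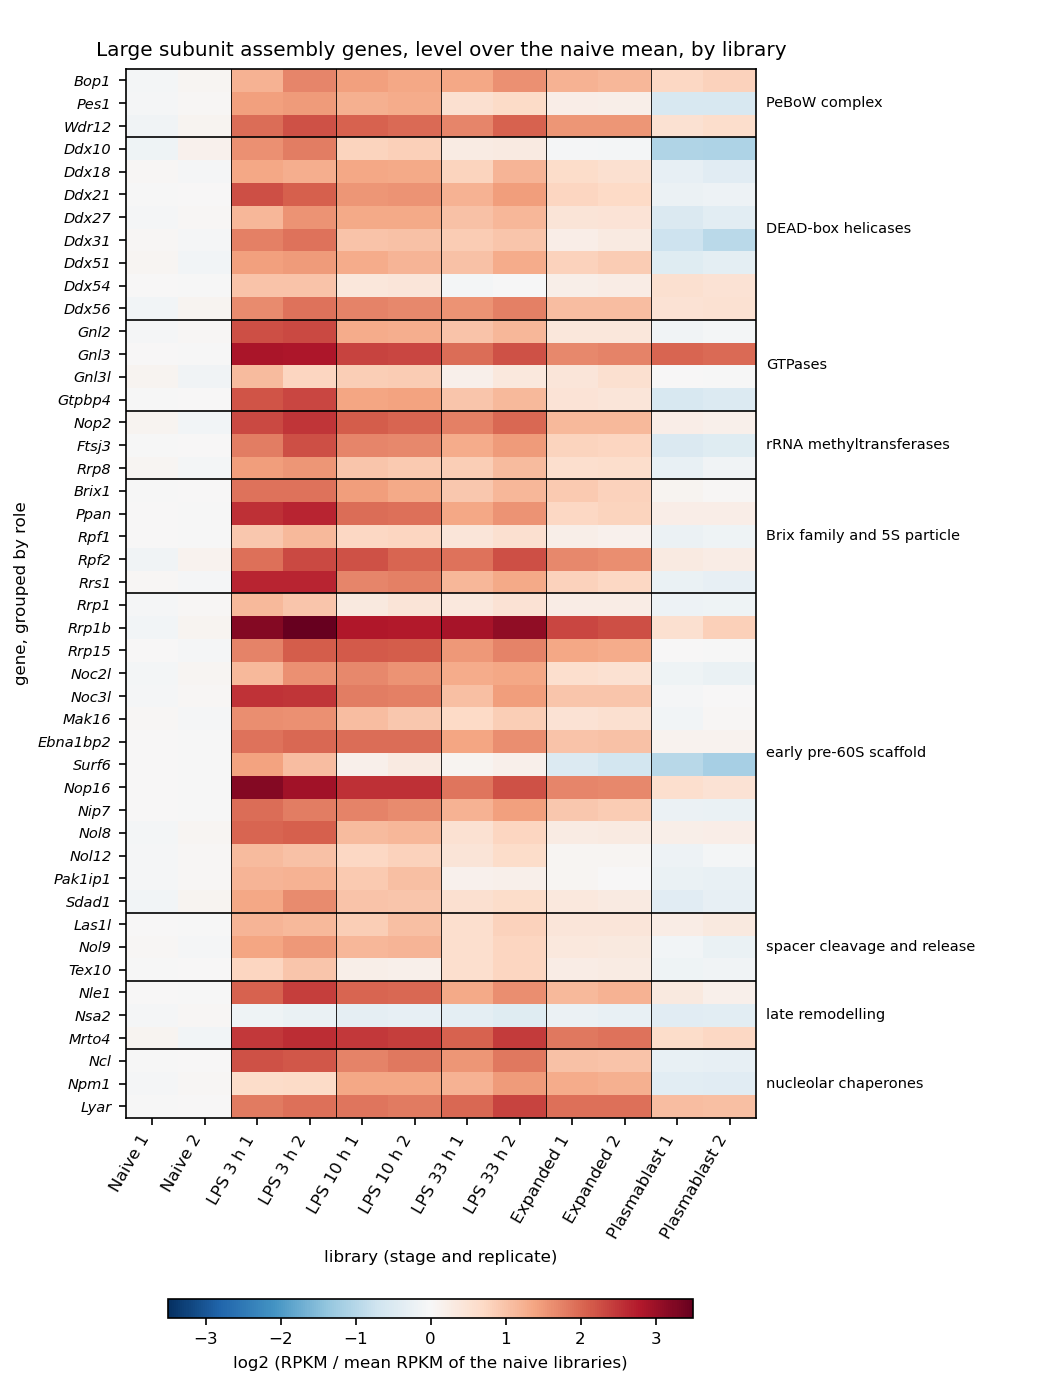
Level of the 46 members in each of the 12 libraries (columns, 2 replicates a stage), as log2 of the RPKM over the naive mean, with genes in rows grouped by role. Nearly all rows are red at 3 h and fade towards plasmablasts; Nsa2 stays pale throughout, while Gnl3 and Lyar remain red in plasmablasts.

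The first comparison asked how the assembly genes respond in the first hours of activation. Of the 44 members tested, 42 were DE upwards between naive cells and 3 h (95.5%), whereas 21% of all tested genes were called higher and 24.3% lower. Among the members the median change was 1.85 as log2 (quartiles 1.38 and 2.21), against -0.03 for all tested genes. No member was DE downwards in edgeR's glmTreat or in DESeq2's Wald test, and 0 had a lower level at an unadjusted p under 0.05. Counting levels alone, 45 of the 46 members had both 3 h libraries above both naive ones, as did 39.7% of tested genes.

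The largest change was that of Rrp1b (Entrez 72462, chromosome 17 of mm10 from 32036162 to 32062865), a nucleolar protein of the Rrp1 family that also binds protein phosphatase 1. It stood at 4.54 and 5.18 RPKM in naive cells and at 45.0 and 61.1 after 3 h, or 3.45 as log2 fold change (standard error, SE, 0.155, adjusted p = 2.5e-09). The replicates at 3 h differed, but both lay above all other libraries, the nearest of which was 33 h replicate 2 at 42.1 RPKM. Nop16 (Entrez 28126, chromosome 13 from 54584191 to 54590097), a small nucleolar protein of the early particle, had 15.4 and 15.2 RPKM before and 141 and 118 after activation, or 3.08 (SE 0.123, adjusted p = 9.8e-10). Gnl3 (Entrez 30877, chromosome 14 from 31012433 to 31019131) encodes nucleostemin, a GTPase of proliferating and stem cells. Its level went from 19.0 and 18.7 to 136 and 135 RPKM, or 2.85 on the log2 scale (SE 0.1, adjusted p = 4.6e-10).

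Rrs1 and Ppan completed the 5 largest changes. Rrs1, which with Rpf2 brings the 5S ribosomal RNA particle to the subunit, had 32.9 and 31.1 RPKM in naive cells and 201 and 204 after 3 h (log2 fold change 2.66, SE 0.0881, adjusted p = 3.6e-10). Ppan, a Brix domain protein, had 25.4 and 24.5 RPKM in naive cells and 147 and 157 after 3 h (2.61, SE 0.0945, adjusted p = 6.1e-10). In neither gene did the groups come near each other, and the 3 h libraries were the highest of all 12.

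By role, the rise at 3 h reached each group of factors. In the PeBoW complex, which is needed for the cuts that release the large subunit RNAs, Bop1 (1.47), Pes1 (1.47) and Wdr12 (2.10) were all DE upwards. So were the 8 DEAD-box RNA helicases, from Ddx54 at 1.01 to Ddx21 at 2.17. The 3 tested GTPases changed by 2.27 to 2.85, and the 3 methyltransferases by up to 2.41 for Nop2, which methylates a cytosine of the large ribosomal RNA. All 5 genes of the Brix family and the 5S particle rose, with a median of 2.14. The 14 early scaffold factors rose as well, from Rrp1 at 1.06 to Rrp1b. Nol9, the kinase that acts after the spacer is cut, rose by 1.45. Of the late factors, Mrto4, which holds the place of a stalk protein on the particle, rose by 2.52 and Nle1, a substrate of the remodelling ATPase Mdn1, by 2.25, and of the nucleolar chaperones Ncl by 2.19 and Lyar by 1.88.

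Tex10, a member of the same spacer processing complex, had the smallest change that was called. Its naive libraries stood at 18.6 and 19.0 RPKM and those at 3 h at 31.8 and 37.2 (log2 fold change 0.88, SE 0.096, adjusted p = 0.0031). The groups did not overlap, but the call was lost without 3 h replicate 2 (adjusted p = 0.056), and likewise when libraries were scaled by size alone (adjusted p = 0.16).

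The other 2 tested members were not DE at 3 h. Npm1 (Entrez 18148, chromosome 11 from 33152498 to 33164142) encodes nucleophosmin, a histone and ribosome chaperone. It had 159 and 171 RPKM in naive cells and 259 and 265 after 3 h, which did not overlap, and 0.67 on the log2 scale (SE 0.090, adjusted p = 0.13). By 10 h it had reached 419 and 420 RPKM, and over the whole span from naive cells its change of 1.34 was DE (SE 0.0909, adjusted p = 1.4e-06). In that longer comparison 39 members were DE upwards, beside 19.4% of all tested genes, and 0 downwards, beside 19.9%.

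Nsa2 (Entrez 59050, chromosome 13 from 97129427 to 97137926), a factor of the nuclear pre-60S particle, was DE at none of the 5 transitions. It measured 52.5 and 55.6 RPKM in naive cells, 48.4 and 46.3 after 3 h, 43.6 and 44.2 after 10 h, 43.0 and 40.1 after 33 h, 47.1 and 45.3 in the expanded population and 40.8 and 41.9 in plasmablasts. All 12 values lay between 40.1 and 55.6, and the naive pair was the highest. The change by 3 h was -0.19 (SE 0.0797, adjusted p = 1), with a 95% interval from -0.36 to -0.02. The annotation names 2 pseudogenes of Nsa2, and likewise 2 of Mrto4, with which reads could be shared.

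**Figure D2:**
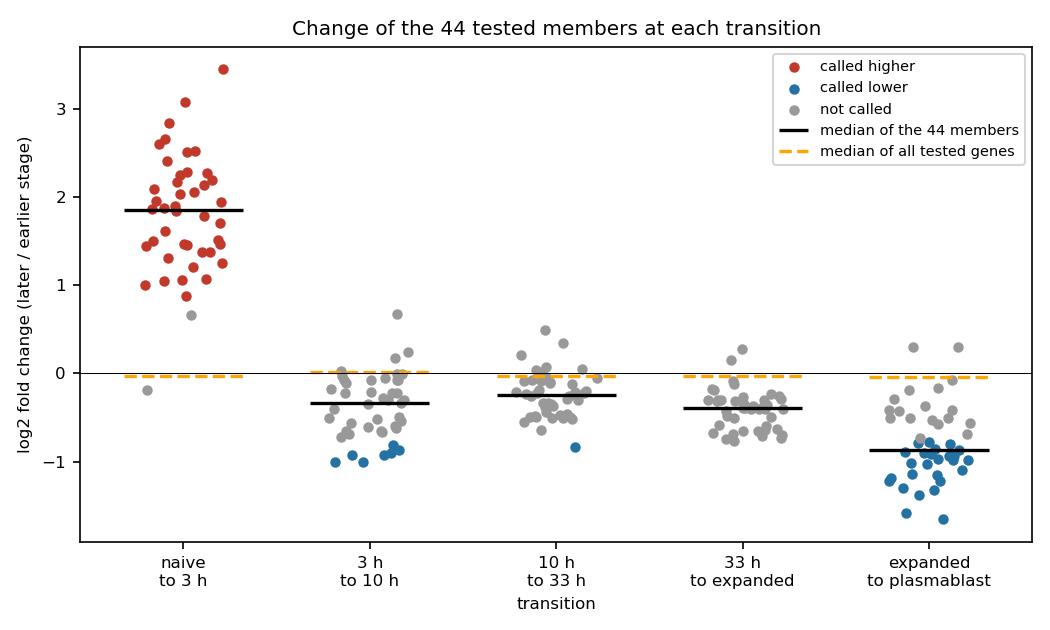
Log2 fold change (later over earlier stage) of the 44 tested members at each of the 5 transitions; each point is a gene, coloured by its call. The black line is the members' median, which runs from 1.85 at naive to 3 h to -0.87 at expanded to plasmablast, and the dashed line is the median of all tested genes.

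In absolute level the genes differ widely. Over all libraries the mean ran from 8.09 RPKM to 407 RPKM, and the highest were those of Ncl, Npm1, Rrp1 and Ddx21. Ncl had 159 and 164 RPKM in naive cells, 752 and 722 after 3 h, 533 and 584 after 10 h, 467 and 583 after 33 h, 330 and 324 in the expanded population and 134 and 132 in plasmablasts. Its 3 h libraries were the highest and its plasmablast libraries the lowest of all 12, and the rise by 3 h was 2.19 (SE 0.101, adjusted p = 5.3e-09). Rrp1, whose yeast counterpart acts in the early particle, began higher than most members, at 138 and 146 RPKM, and reached 311 and 281 after 3 h (1.06, SE 0.083, adjusted p = 3.0e-05). Ddx21, a helicase that also binds RNA polymerase I transcription units, went from 63.7 and 65.0 to 305 and 274 RPKM (2.17, SE 0.0918, adjusted p = 2.7e-09).

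**Figure D3:**
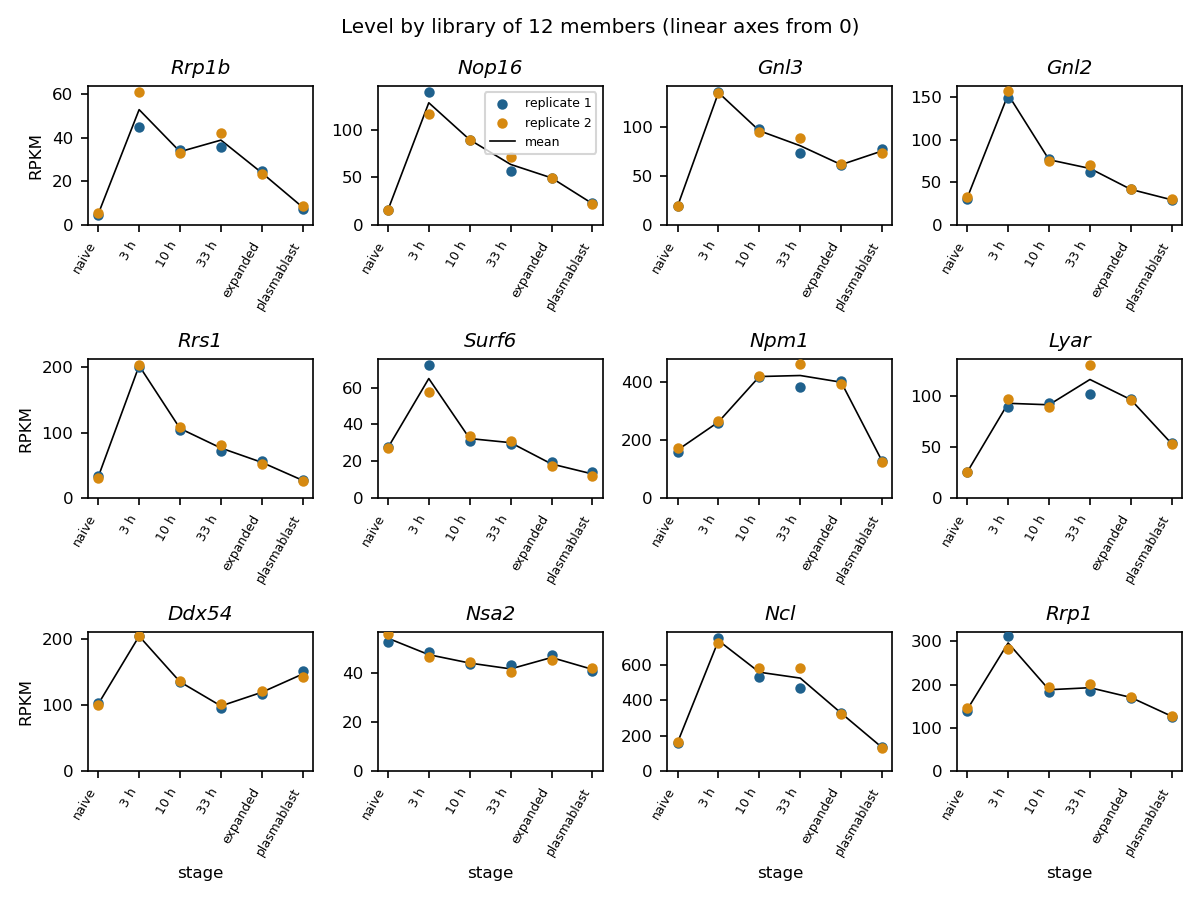
RPKM of 12 members by stage, on linear axes from 0; points are the 2 replicates and the line joins the means. Rrp1b, Nop16, Gnl3, Gnl2, Rrs1, Surf6, Ddx54, Ncl and Rrp1 peak at 3 h. Lyar and Npm1 have their highest mean at 33 h, where replicate 1 of Npm1 (383 RPKM) lies below both 10 h libraries. The plasmablast means of Gnl3 and Ddx54 are above the expanded means (not so when scaled by library size alone). Nsa2 stays between 40.1 and 55.6 RPKM.

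Genes that peak early were taken as those DE upwards by 3 h and DE downwards from 3 h to 10 h. There were 7 among the members, namely Surf6, Gnl2, Rrs1, Nol8, Ddx10, Gtpbp4 and Ddx31, out of 44 tested, beside 7.05% of all tested genes. They were also the only 7 members called lower at this step (15.9% of the members), at which 13.4% of all tested genes were called lower and 17.4% higher. The median of the members was -0.34, against 0.02 for all tested genes. No member was called higher by edgeR's glmTreat or DESeq2's Wald test, 0 were higher at an unadjusted p under 0.05, and the F-test without a fold threshold called 1 higher and 28 lower.

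Surf6 (Entrez 20935, chromosome 2 from 26890418 to 26902887), a nucleolar protein that binds nucleic acids, had 27.5 and 27.0 RPKM in naive cells, 72.6 and 57.5 after 3 h and 31.0 and 33.6 after 10 h. It was back near its naive level within this step, with a change of -1.01 (SE 0.116, adjusted p = 0.0017). Gnl2 (Entrez 230737, chromosome 4 from 125029989 to 125055382), a GTPase that stays on the particle until a late nuclear step, had 30.4 and 32.5 RPKM, then 149 and 157, then 77.5 and 75.3 (-1.002, SE 0.0839, adjusted p = 0.00019). Its 10 h pair lay between the naive and the 3 h pair, clear of both.

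Rrs1 dropped from its 3 h level to 104 and 109 RPKM at 10 h (-0.93, SE 0.0829, adjusted p = 7.0e-04). Nol8, a nucleolar RNA-binding protein, had 12.1 and 13.4 RPKM in naive cells, 52.0 and 54.2 after 3 h and 27.3 and 28.7 after 10 h (-0.92, SE 0.0924, adjusted p = 0.0016). Ddx10, an RNA helicase whose yeast counterpart acts on the small subunit, had 20.9 and 25.6, then 70.7 and 80.9, then 40.2 and 41.2 RPKM (-0.90, SE 0.101, adjusted p = 0.0045). In these genes, too, the 10 h libraries stood apart from both earlier stages.

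Gtpbp4, the GTPase known as Nog1 in yeast, had 49.1 and 50.2 RPKM in naive cells, 229 and 250 after 3 h and 130 and 133 after 10 h, a change of -0.87 (SE 0.0842, adjusted p = 0.0026). Ddx31 was the weakest of the 7, at -0.82 (SE 0.0991, adjusted p = 0.017). Its call was lost without 3 h replicate 2 (adjusted p = 0.071), without 10 h replicate 1 (adjusted p = 0.070) and without a filter on low counts (adjusted p = 0.053).

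The early peak depends on the scaling. When libraries were scaled by size alone, the median change of all tested genes from 3 h to 10 h moved by 0.33 on the log2 scale. None of the 7 was then DE downwards, with Gnl2 at -0.67 (adjusted p = 0.14) and Gtpbp4 at -0.54 (adjusted p = 0.72), Npm1 was DE upwards at 1.01 (adjusted p = 0.00025), and the split of all calls went from 56.5% to 77.4% higher. On total counts, 21 members had their highest mean at 3 h and 21 after 10 h.

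Members with their highest mean at 10 h or 33 h were not called at this step. From 3 h to 10 h, Npm1 had a log2 fold change of 0.68 (SE 0.0897, adjusted p = 0.15), the largest of the members. Lyar, a nucleolar zinc finger protein, had 88.9 and 96.6 RPKM at 3 h, 93.1 and 89.5 after 10 h and 102 and 131 after 33 h. The 33 h replicates were far apart, but both exceeded all earlier libraries.

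Promoter sequences were looked at for letters that the members share. Of the 46 genes, 38 matched an entry of RefSeq's promoter windows on GRCm38.p6, the assembly behind mm10. Each window reaches from 250 bases before the start of the gene to 50 bases after it. Some genes have several windows (45 for the 38 members), and a motif in any of them counted. All percentages are of the genes with a searched window. CACGTG, the core E-box that Myc and related factors bind, was in a window of 6 members (15.8%), beside 11.7% of tested genes and 8.09% of all genes. Its share was 28.1% in the small subunit processome genes and 16.1% in the large subunit ribosomal protein genes. CCGGAAG, a core of sites of the ETS and GABP factors, searched on both strands (CTTCCGG), was in windows of 16 members (42.1%), beside 20.4% of tested genes and 9.93% of all genes. It was in 40.6% of the small subunit processome genes and 41.9% of the large subunit ribosomal protein genes. In the 250 bases before the start alone, CACGTG was in 2 members (5.26%), Nop2 at position -60 and Rpf2 at -26. It was there in 9.84% of tested genes, 18.8% of the processome genes and 12.9% of the ribosomal protein genes. Rpf2 has 2 windows, and in the other one this CACGTG lies after the start, at position 35. CCGGAAG was before the start in 9 members (23.7%), beside 15.9% of tested genes, 37.5% of the processome genes and 25.8% of the ribosomal protein genes. For CACGTG the members' share was thus above that of tested genes in the longer window and below it in the shorter one. The 6 members with CACGTG had a median log2 fold change by 3 h of 1.83, and the 31 tested members without it 1.88. A match of letters in these windows is a description only. The 250 bases before the start are printed for a gene with both CACGTG and CCGGAAG there (Nop2) and for the early peak with 3 copies of CTTCCGG there (Surf6). They are also printed for a strongly rising gene (Ppan) and an early peak (Nol8) with neither CACGTG nor CCGGAAG in these 250 bases. Ppan has CCGGAAG at position 19 after the start, and Surf6 has a further copy at position 42. Capitals mark CACGTG and either strand of CCGGAAG, and each sequence is written 5′ to 3′ on the strand of its gene.
Nop2, chr6:125131633-125131882, plus strand: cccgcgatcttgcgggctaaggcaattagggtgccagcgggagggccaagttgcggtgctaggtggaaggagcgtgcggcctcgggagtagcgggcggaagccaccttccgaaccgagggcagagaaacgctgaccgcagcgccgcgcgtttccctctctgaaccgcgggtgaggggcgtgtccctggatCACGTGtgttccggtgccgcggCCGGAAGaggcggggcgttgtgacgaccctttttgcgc
Surf6, chr2:26902888-26903137, minus strand: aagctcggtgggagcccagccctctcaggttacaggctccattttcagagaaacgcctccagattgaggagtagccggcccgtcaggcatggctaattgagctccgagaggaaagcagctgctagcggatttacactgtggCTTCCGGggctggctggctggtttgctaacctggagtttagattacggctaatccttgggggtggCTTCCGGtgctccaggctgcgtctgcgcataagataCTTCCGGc
Ppan, chr9:20887925-20888174, plus strand: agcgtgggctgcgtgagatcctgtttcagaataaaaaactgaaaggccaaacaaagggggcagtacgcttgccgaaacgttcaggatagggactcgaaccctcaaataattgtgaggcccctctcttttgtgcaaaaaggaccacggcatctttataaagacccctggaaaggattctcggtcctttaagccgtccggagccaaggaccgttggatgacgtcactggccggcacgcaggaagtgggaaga
Nol8, chr13:49652828-49653077, plus strand: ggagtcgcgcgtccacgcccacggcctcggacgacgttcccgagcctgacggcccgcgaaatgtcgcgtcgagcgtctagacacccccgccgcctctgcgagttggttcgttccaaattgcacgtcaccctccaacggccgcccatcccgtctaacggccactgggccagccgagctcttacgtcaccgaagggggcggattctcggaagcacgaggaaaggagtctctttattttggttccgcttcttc

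The 10 h to 33 h interval runs up to the first division, and division markers (Mki67, Top2a, Ccnb1 and Cdk1) summed to 57.3 to 137 CPM through 10 h and to 1670 to 2566 CPM from 33 h on. Only Pak1ip1, a WD repeat protein of the early particle, was DE among the members, and it fell. It had 62.7 and 68.5 RPKM at 10 h and 36.5 and 37.0 after 33 h (log2 fold change -0.84, SE 0.0833, adjusted p = 0.010), so that its 33 h pair stood at little more than its naive pair of 32.3 and 33.8. The call was lost without 10 h replicate 2 (adjusted p = 0.12), without a filter on low counts (adjusted p = 0.061) and in the Wald test of DESeq2 (adjusted p = 0.10). Of all tested genes 4.45% were called lower and 10.1% higher here, but 0 members were higher in glmTreat, at an unadjusted p under 0.05 or in DESeq2's test. The members' median was -0.24, and for 33 of the 46 both 33 h libraries lay below both 10 h libraries, as for 38.8% of tested genes. Pes1 came next to Pak1ip1, at -0.64 (SE 0.0789, adjusted p = 0.40). The 33 h replicates differed, where the members' log2 level was lower in replicate 1 than in replicate 2, with a median gap of -0.209. Without 33 h replicate 1 the members' median was -0.14, and without 33 h replicate 2 it was -0.33.

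From 33 h to expanded B cells no member was DE in edgeR's glmTreat or in DESeq2's Wald test, beside 7% of all tested genes called higher and 3.67% lower. At an unadjusted p under 0.05, 3 members were lower and 0 higher, and the F-test without a fold threshold called 32 lower and 1 higher. Most levels were lower all the same, as 42 of the 46 members had both expanded libraries below both 33 h libraries, against 38.9% of tested genes. For 3 members (Ddx54, Nsa2 and Gnl3l) both lay above, against 34.5% of tested genes. The members' median was -0.40. The median was -0.52 without 33 h replicate 1, where Ncl, Nop2 and Ppan were DE downwards, and -0.26 without 33 h replicate 2.

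The last transition compared plasmablasts with the expanded B cells sorted from the cultures on the same day. Of the 44 members tested, 26 were DE downwards (59.1%), beside 12.2% of all tested genes, and 0 upwards, beside 14%. The members' median was -0.87 on the log2 scale (quartiles -1.04 and -0.50), against -0.05 for all tested genes. No member was higher at an unadjusted p under 0.05 or in DESeq2's Wald test, which called 17 lower, and the F-test called 2 higher. In plasmablasts the immunoglobulin constant genes and Jchain took 11.1% to 11.5% of all counts, against 2.71% to 3.31% in expanded B cells, and their part in the members' relative levels was not tested. Variable immunoglobulin segments, which were left out of the fit, took 5.04% to 5.11% of all counts, against 1.11% to 1.26%. Their part in the members' share of all counts was not tested either.

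**Figure D4:**
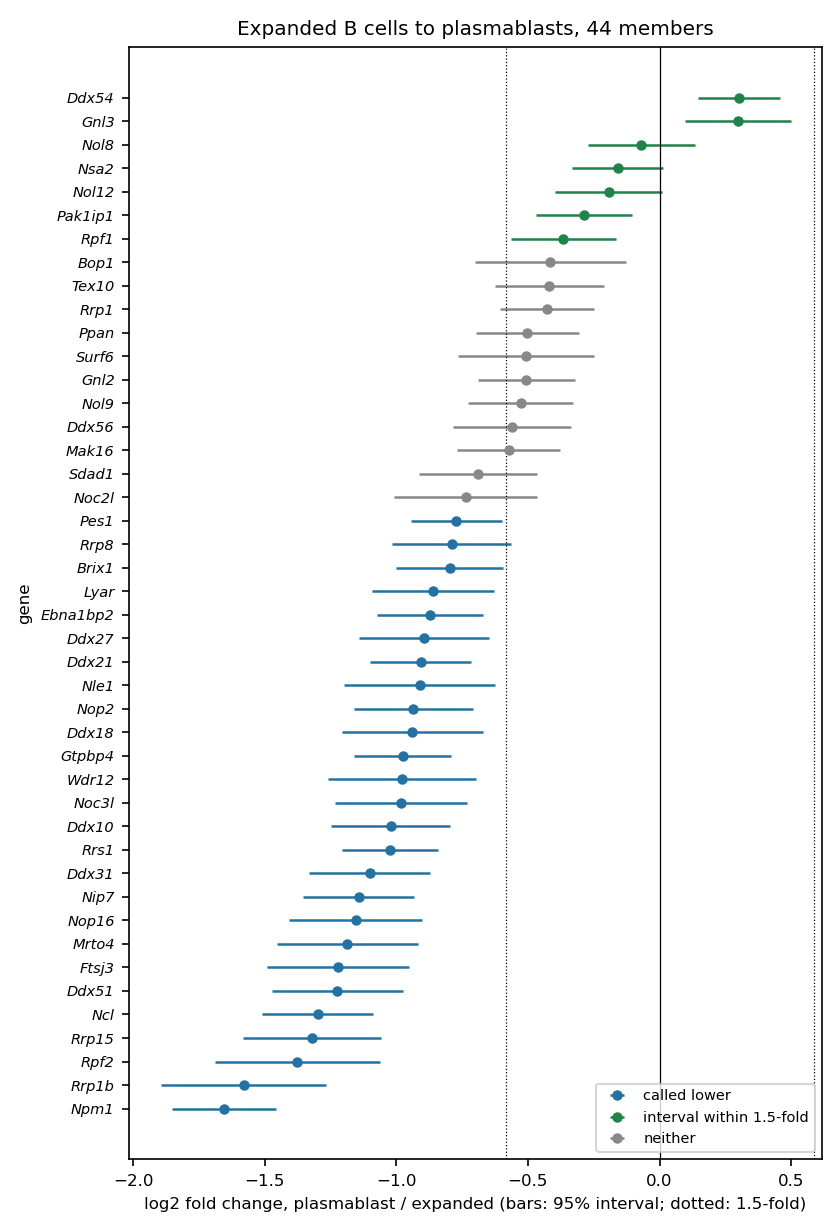
Log2 fold change of the 44 tested members from expanded B cells to plasmablasts, with 95% intervals from the edgeR fit and dotted lines at 1.5-fold. The 26 genes called lower are at the bottom, led by Npm1 at -1.65, and the 7 whose interval lies within 1.5-fold are at the top, where the positive values of Ddx54 and Gnl3 turn to -0.04 when library size alone replaces TMM.

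Npm1 lost most. It had 405 and 394 RPKM in the expanded population and 129 and 125 in plasmablasts, below even its naive pair, with -1.65 on the log2 scale (SE 0.0919, adjusted p = 1.9e-07). Rrp1b had 24.6 and 23.2 RPKM and then 7.24 and 8.72 (-1.58, SE 0.145, adjusted p = 2.1e-05). Rpf2, the partner of Rrs1 in the 5S particle, had 43.3 and 41.7 RPKM and then 16.7 and 16.1 (-1.38, SE 0.145, adjusted p = 0.00011). In each of these the populations were far apart and the replicates close.

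Rrp15, which is needed for the maturation of the large subunit RNA, had 70.5 and 67.9 RPKM in the expanded population and 28.0 and 27.5 in plasmablasts (-1.32, SE 0.121, adjusted p = 4.2e-05). Ncl dropped to less than its naive level (-1.30, SE 0.0979, adjusted p = 8.5e-06). Ddx51, a helicase that acts on the end of the large subunit RNA, had 7.82 and 8.21 RPKM and then 3.33 and 3.53 (-1.22, SE 0.115, adjusted p = 8.9e-05). The plasmablast pairs of Rrp15, Ncl and Ddx51 were all below the expanded pairs, with no overlap.

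The losses were spread over the roles, with 6 of 8 helicases, all 3 methyltransferases, all 3 nucleolar chaperones, 3 of 5 genes of the Brix family and the 5S particle, and 6 of 14 early scaffold factors DE downwards. In the PeBoW complex, Wdr12 (-0.98, adjusted p = 0.0058) and Pes1 (-0.77, adjusted p = 0.019) were called and Bop1 (-0.41, adjusted p = 1) was not. The call of Wdr12 was lost without plasmablast replicate 1 (adjusted p = 0.054) and in DESeq2's test (adjusted p = 0.071), and that of Pes1 in DESeq2's test (adjusted p = 0.28). Neither tested gene of spacer cleavage was called. Of the 26 calls, 3 to 6 were lost on leaving out any 1 of the 4 libraries, and Pes1 and Rrp8 were lost in each of these fits.

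A gene was taken to keep its level where the 95% interval of its change lay within 1.5-fold either way. This held for 7 members, beside 27.9% of all tested genes, while 11 were neither kept nor called. The number kept was 5 to 6 with any 1 of the 4 libraries left out, and 2 when libraries were scaled by size alone. Kept does not mean unchanged. The F-test without a fold threshold called Ddx54 (adjusted p = 0.003) and Gnl3 (adjusted p = 0.015) higher, and Rpf1 (adjusted p = 0.0043) and Pak1ip1 (adjusted p = 0.011) lower. It did not call Nol8, Nol12 and Nsa2. The narrowest intervals were those of Ddx54, Nsa2, Pak1ip1 and Rpf1. Ddx54 (Entrez 71990, chromosome 5 from 120613082 to 120628592), a helicase, had 103 and 100 RPKM in naive cells, 205 and 204 after 3 h, 134 and 136 after 10 h, 96.2 and 101 after 33 h, 118 and 121 in the expanded population and 151 and 143 in plasmablasts. The plasmablast pair was above those of 10 h, 33 h and the expanded stage, and its change of 0.30 (SE 0.0721, adjusted p = 1) had a 95% interval from 0.15 to 0.46.

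Nsa2 changed by -0.16 on the log2 scale in the fit (95% interval -0.33 to 0.01), with its values given above. Pak1ip1 had 34.8 and 33.1 RPKM in the expanded population and 28.3 and 27.3 in plasmablasts (-0.29, interval -0.47 to -0.10). Rpf1, a Brix domain protein, had 26.9 and 25.8 RPKM and then 20.1 and 20.7 (-0.37, interval -0.57 to -0.17). Nol8 (-0.07), Nol12 (-0.19) and Gnl3 (0.30) were the other 3 of the 7.

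Among the tested GTPases, Gnl3 had the highest level in plasmablasts. It had 60.8 and 62.3 RPKM in expanded B cells, below its 3 h pair, and 77.2 and 74.0 in plasmablasts, where Gnl2 had 28.6 and 29.8 and Gtpbp4 33.6 and 35.8. Gnl3 and Ddx54 were the 2 members with both plasmablast libraries above both expanded ones, as for 39.3% of tested genes, while the other 44 had both below, as for 43.9%. With library size alone, the median of all tested genes moved by -0.339, and the values of Ddx54 and Gnl3 became -0.04 each.

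Some members share their locus with another counted gene, and whether the counting used strand is not stated in the sources used here, so their values are less certain. Ilk, which overlaps Rrp8, had 138% of the counts of Rrp8, Invs 41.1% of those of Tex10, Ddx42 37.4% of those of Ftsj3, Tti2 23.1% of those of Mak16, the larger of Mroh1 and Scx 22.8% of those of Bop1, and Glt8d1 10.1% of those of Gnl3. The other overlaps were of 4.21% or less.

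Plasmablasts were also set against naive cells. The median log2 fold change over the 44 was -0.16, against 0.02 for all tested genes, and for 25 the 95% interval lay within 1.5-fold, beside 18.2% of all tested genes. Scaled by library size alone, the median was -0.44 and 14 members had such an interval. Gnl3 at 2.01 (SE 0.0975, adjusted p = 5.6e-09) and Lyar at 1.07 (SE 0.110, adjusted p = 2.0e-04) were DE upwards, beside 26.6% of all tested genes. Lyar had 25.2 and 25.3 RPKM in naive cells and 53.7 and 52.4 in plasmablasts, despite a fall from 96.5 and 96.1 in expanded B cells. Its fall of -0.86 was called (adjusted p = 0.013), but not without either plasmablast replicate (adjusted p = 0.056 and 0.085) nor by DESeq2 (adjusted p = 0.21).

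DE downwards from naive cells to plasmablasts were Ddx10 (-1.07, adjusted p = 0.00014), Surf6 (-1.07, adjusted p = 4.0e-04) and Ddx31 (-0.83, adjusted p = 0.011), beside 23.4% of all tested genes. Counting levels alone, 25 of the 46 members had both plasmablast libraries below both naive ones, as did 43.6% of tested genes. For 17 members both lay above, as for 45.7% of tested genes. Ddx10 had 11.1 and 11.1 RPKM in plasmablasts, Surf6 13.9 and 12.1, and Ddx31 4.14 and 3.56 after 6.99 and 6.69 in naive cells. All 3 were among the 7 early peaks, but the matching share of all tested genes was not computed. Of the other early peaks, Gnl2, Rrs1 and Nol8 had intervals within 1.5-fold of naive cells, and Gtpbp4 was neither kept nor called. With library size alone, 0 members were early peaks and Gtpbp4 was also called lower than in naive cells. The call of Ddx31 was lost without plasmablast replicate 2 (adjusted p = 0.12) and in the Wald test of DESeq2 (adjusted p = 0.099).

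The remaining 2 members, Gnl3l and Las1l, lie on the X chromosome and were left out of the fit with all X and Y genes, after the study's methods. Gnl3l, a GTPase related to nucleostemin, had 11.7 and 10.1 RPKM in naive cells, 23.6 and 18.2 after 3 h, 19.8 and 20.1 after 10 h, 12.3 and 14.2 after 33 h, 14.7 and 16.2 in the expanded population and 11.0 and 10.8 in plasmablasts. Las1l, the endonuclease of the internal spacer, had 30.0 and 28.9, 67.6 and 65.1, 53.9 and 61.1, 43.9 and 51.3, 39.8 and 39.7, and 35.3 and 37.1 RPKM at the same stages. In a fit that kept all gene classes, both were DE upwards by 3 h, Gnl3l by 0.93 (SE 0.127, adjusted p = 0.0053) and Las1l by 1.17 (SE 0.0974, adjusted p = 2.1e-05), and neither was DE at a later transition.

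Other genes of ribosome assembly were set beside the members. Among 27 further large subunit factors, 21 were DE upwards by 3 h (median 1.55), with Tma16 (2.76), Nifk (2.53) and Rsl24d1 (2.48) highest, and 6 were DE downwards from expanded B cells to plasmablasts (median -0.57). Of 39 tested genes of the small subunit processome, 36 were DE upwards by 3 h (median 1.74), led by Rrp9 (2.83), Utp4 (2.75) and Nop58 (2.71), and 19 were DE downwards at the last transition (median -0.77). Few ribosomal protein genes of the large subunit were called, as Rpl27 alone of 43 was DE upwards by 3 h (0.96) and Rpl27a alone was DE downwards at the last transition (-0.83), with medians of -0.17 and 0.03. Many ribosomal protein genes have processed pseudogenes, so their counts are uncertain.

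**Figure D5:**
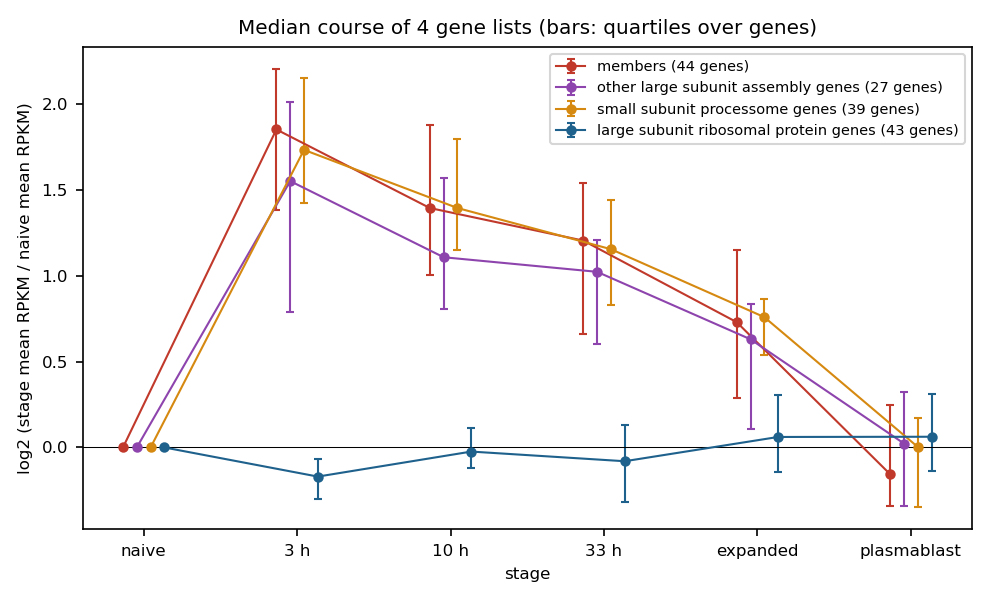
Median log2 of the stage mean RPKM over the naive mean for 4 gene lists, with bars from the lower to the upper quartile over genes. The members, the other large subunit factors and the small subunit processome peak at 3 h, at 1.85, 1.55 and 1.74, and lie at -0.16, 0.02 and 0.003 in plasmablasts, while the medians of the large subunit ribosomal protein genes run from -0.17 to 0.06.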

How the data were processed

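RNA was measured in 12 libraries, grouped into 6 stages by the titles in the labels. The authors made TruSeq libraries, sequenced paired ends on an Illumina NextSeq, aligned reads to mm10 with Rsubread and obtained counts with featureCounts on its inbuilt Entrez annotation; the submitters' processing notes also name CASAVA 1.8.2. The deposited values are raw counts per gene with exon lengths, and the 12 single files held the same counts as the series table. Symbols and coordinates came from RefSeq (GRCm38.p6), which matched 25275 of 27179 IDs. Obsolete IDs, mitochondrial, ribosomal RNA, X and Y genes and variable immunoglobulin segments were removed, as in the study's methods, and filterByExpr left 12767 genes. RPKM and CPM were computed from the counts, RPKM with TMM-scaled library sizes.

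R 4.3.3 and edgeR 4.0.16 (limma 3.58.1) were used, with robust quasi-likelihood dispersions and a one-way layout of all 12 libraries. glmTreat tested against 1.5-fold, with Benjamini-Hochberg adjustment over all tested genes at 0.05. Standard errors are the log2 fold change over the root of its F statistic. The steps were tested on simulated data. Depth of 23026619 to 60585587 counts per library put every member at 326 counts or more, so that counting error is small; replicate spread is estimated from 2 libraries a stage.

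The members and lists were chosen with earlier results of these data known. Values by library are given for the 4 members with the highest mean, the 5 largest and 3 smallest changes by 3 h, up to 6 early peaks (ranked by fall), the 6 largest losses and 4 narrowest kept intervals in plasmablasts, those DE at no transition and those not tested. Ddx31, Lyar, Pes1, Wdr12 and Bop1 were named after their values were seen, as were the role examples. Alternatives were DESeq2 1.42.0 size factors, library size alone, DESeq2's Wald test, the F-test with no fold threshold, filters (none, or at least 10 counts in every library), all gene classes, no ribosomal protein genes, other dispersions, a replicate block, fits of the 4 libraries compared, and each library left out.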

Additional observations from a re-analysis of the deposited data

How the results depend on the processing

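Of the 61 single values checked, 38 kept their direction and their side of the threshold in all alternatives. Library size alone, through the scaling itself, shifted the median of all tested genes by -0.209 (naive to 3 h), 0.33 (3 h to 10 h), -0.339 (expanded to plasmablast), 0.119 (naive to 10 h) and -0.28 (naive to plasmablast), and the share of calls that are higher from 46.3% to 36%, from 56.5% to 77.4%, from 53.5% to 28.7%, from 49.4% to 56.7% and from 53.2% to 41.4%. It gave medians of the members of 1.64, -0.013, -1.21, 1.52 and -0.44 in these comparisons, 1 member higher and 0 lower from 3 h to 10 h, 0 early peaks, 5 members lower from naive cells to plasmablasts, 2 kept from expanded B cells and 14 from naive cells, and it reversed Ddx54 (-0.037) and Gnl3 (-0.041) at the last transition. On total counts 21 members peaked at 3 h and 21 at 10 h, and from replicate 1 alone 11 at 10 h and 1 at 33 h. The F-test, which asks for a change of any size, called 1 lower by 3 h, 1 higher and 28 lower by 10 h, 2 higher and 21 lower by 33 h, 1 higher and 32 lower to expanded B cells, 2 higher to plasmablasts, 1 lower from naive cells to 10 h, and 11 higher and 15 lower from naive cells to plasmablasts, with 28 early peaks. For the values that follow the cause was not tested. DESeq2's size factors and its Wald test both gave medians of -0.42 (3 h to 10 h), -0.83 (expanded to plasmablast) and 1.31 (naive to 10 h), and the Wald test called 0 lower from 10 h to 33 h and 17 lower at the last transition. With no filter, 0 were lower by 33 h and 1 (Noc2l) in expanded B cells, with medians of -0.90 (expanded to plasmablast) and -0.19 (naive to plasmablast). The median from expanded B cells to plasmablasts was -0.84 with at least 10 counts in every library (1.34 from naive cells to 10 h), -0.82 with all gene classes, -0.89 without ribosomal protein genes and -0.84 in the 4 libraries, and that from naive cells to plasmablasts -0.20 in both of the latter. A narrower kept interval than 1.5-fold or a wider one (2-fold), which changes the count by construction, left 1 or 17 members from expanded B cells and 5 or 37 from naive cells, the last pair chosen after seeing the data. Leaving out each library gave 41 to 42 members higher by 3 h with medians of 1.73 to 1.91, 6 to 9 early peaks, 0 to 1 lower from 10 h to 33 h (0 without 10 h replicate 2) with medians of -0.33 to -0.14, 0 to 3 lower to expanded B cells (3 without 33 h replicate 1) with medians of -0.52 to -0.26, 20 to 23 lower to plasmablasts with medians of -0.88 to -0.83, medians of -0.16 to -0.12 from naive cells to plasmablasts, and 5 to 6 kept from expanded B cells and 21 to 24 from naive cells. Whether replicate numbers pair the libraries is not given by the labels. Correlations of the replicates' deviations over the 15 pairs of stages ran from -0.139 to 0.0839. That of expanded B cells with plasmablasts was the highest, and such values from 2 libraries a stage cannot settle the pairing. The replicate block gave 42 higher by 3 h and 26 lower at the last transition, and it added Bop1 to those higher in plasmablasts than in naive cells, 3 in place of 2.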
